A study of Mus musculus with 12 samples.

Results

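The genes described here are 10 sensors, adaptors and products of innate immunity, measured by RNA-seq in mouse liver: the Toll-like receptors Tlr2, Tlr4 and Tlr9, the co-receptors Cd14 and Ly96, the adaptor Myd88, the inflammasome sensor Nlrp3, the cytokines Tnf and Il1b, and the NF-kB inhibitor Nfkbia. They were chosen by name from the 47729 gene identifiers in the counts, each symbol matching 1 identifier, and all 10 passed the filter on low counts. Livers came from 12 male C57BL/6 mice, in 3 groups of 4 (healthy, STAM-vehicle, STAM-I-BET151), and were collected at 9 weeks of age. STAM mice received streptozotocin, a toxin of insulin-producing beta cells, at 2 days of age and a high-fat diet from 4 weeks, which gives diabetes with fatty, inflamed liver as a model of NASH (nonalcoholic steatohepatitis). Healthy mice (wild type, named naive in the labels) received neither, so the effects of streptozotocin and of diet cannot be told apart. From 6 to 9 weeks of age, STAM-I-BET151 mice were dosed orally once a day with 10 mg/kg of I-BET151, which blocks the bromodomains of the BET proteins, and mice of the other groups received vehicle. The vehicle was methylcellulose, whereas I-BET151 was suspended in hydroxypropyl methylcellulose with Tween, so compound and formulation cannot be told apart either.

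Toll-like receptors recognise molecules of microbes or of damaged cells, and most of them signal through the adaptor Myd88 to the transcription factor NF-kB. NF-kB is held in the cytoplasm by inhibitors such as the product of Nfkbia, and it drives transcription of Tnf, of the Il1b precursor, of Nlrp3 and of Nfkbia itself. In the liver these genes are used above all by Kupffer cells, the resident macrophages, and by monocytes that enter from the blood, while hepatocytes, endothelial and stellate cells also carry some of the receptors.

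The deposited counts per mouse summed to between 34711229 and 53365596. They were scaled with edgeR's TMM factors, and levels are given below as CPM, counts scaled to a library of 1000000. In bulk liver RNA, more cells of a type and more RNA per cell cannot be told apart. STAM-I-BET151 mouse 3 stood apart from the other 11 livers: its 10 highest genes took 7.95% of its counts against at least 13.4% elsewhere, its mitochondrial share was 2.71% against at least 4.51%, and its 5 hepatocyte markers (Alb, Apoa1, Ttr, Cyp2e1, Cps1) summed to 20955 CPM against 70372 to 85122 CPM in the other mice of its group. The study left out 1 STAM-I-BET151 sample that it does not name. All 4 are used here, and the calls of the 10 genes in this group are given without mouse 3 as well. Nothing in the labels names separate cohorts, so the p-values below measure the spread between these 12 mice only.

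Per kilobase of exon, the 10 genes differed widely in level in healthy liver. Nfkbia was highest, at a mean level of 31.8 CPM per kb (SD 4.34, n = 4), followed by Myd88 at 7.90 (SD 0.90), Ly96 at 2.41 (SD 0.48) and Cd14 at 1.92 (SD 0.63). The levels of Il1b and Tlr2 were 0.80 and 0.59 CPM per kb, those of Nlrp3 and Tlr4 were 0.25 each, and Tlr9 and Tnf were lowest, at 0.11 and 0.10. Neighbours in this order whose ranges over the 4 healthy mice overlapped were Ly96 and Cd14, Il1b and Tlr2, Nlrp3 and Tlr4, and Tlr9 and Tnf. The lowest genes rested on few reads, from 0 to 19 counts per healthy mouse for Tnf and from 8 to 20 for Tlr9, whereas Nfkbia had from 1452 to 2479.

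**Figure D1:**
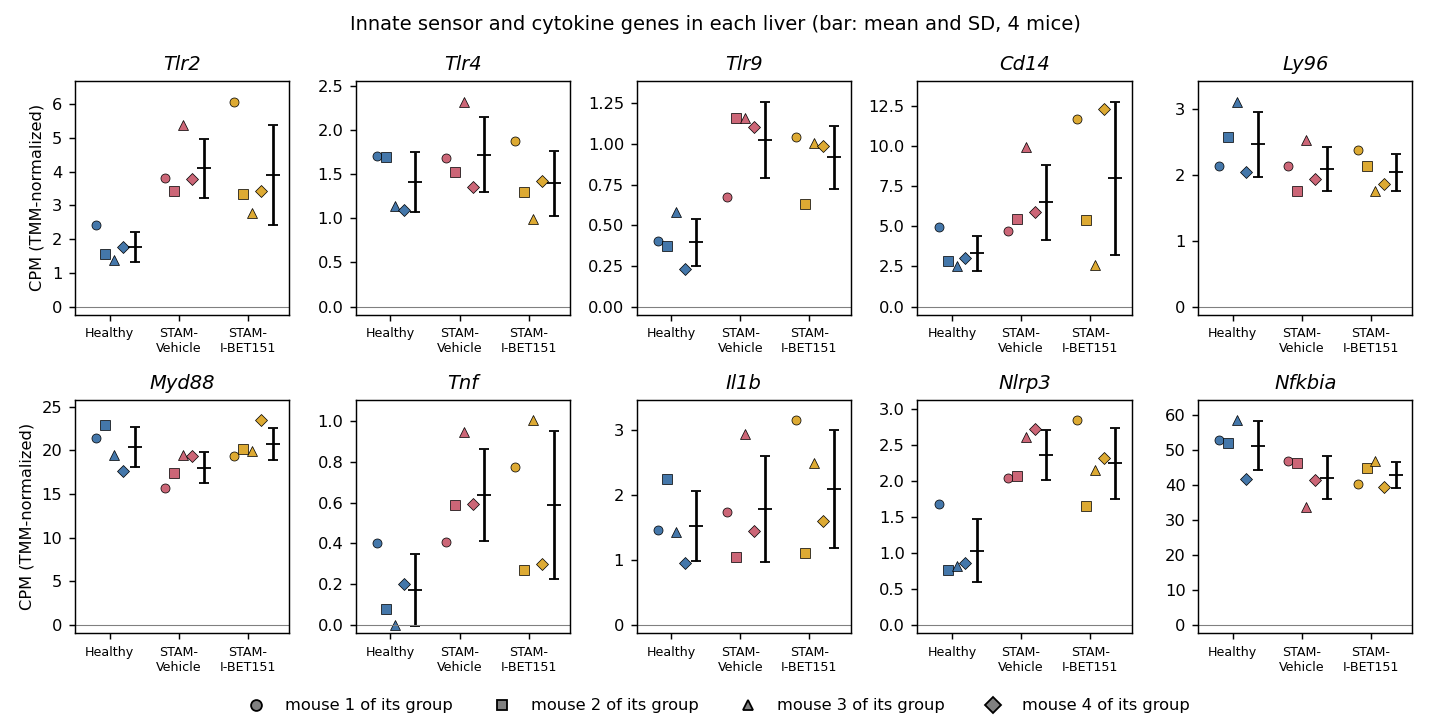
Level of each of the 10 genes (CPM, linear axis from 0) in every mouse of each group, with the group mean and SD as a black bar and the mouse number as the marker shape. All STAM-vehicle points lie above all healthy points for Tlr2, Tlr9, Nlrp3 and, by a narrow margin, Tnf, while the STAM-vehicle and STAM-I-BET151 points overlap for all 10 genes.

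The first comparison, STAM-vehicle against healthy, asks how the sensing genes stood in the diseased liver. The receptors Tlr2 and Tlr9 and the inflammasome sensor Nlrp3 rose, each by more than 2-fold, and these were the only 3 of the 10 genes past the threshold of 0.05 on the p-value that edgeR's quasi-likelihood F-test gave after Benjamini-Hochberg adjustment over 16823 genes, in 1 fit of all 12 mice. Over all genes tested, 7.1% passed this threshold and 5.72% rose. The median log2 fold change of the 10 genes was 0.62, against 0.0089 over all genes tested. In 4 of the 10 genes every STAM-vehicle mouse was higher than every healthy mouse, which was so for 14.2% of all genes tested, and in none was every mouse lower, against 12.2% of all. The receptor for bacterial lipopolysaccharide, Tlr4, its partner Ly96, the adaptor Myd88, and Il1b did not pass the test.

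Tlr2 (ENSMUSG00000027995, chr3:83836272-83841767 on GRCm38, minus strand) encodes a receptor for bacterial lipoproteins. Its level in healthy mice 1 to 4 was 2.40, 1.56, 1.37 and 1.75 CPM, and in STAM-vehicle mice 1 to 4 it was 3.80, 3.43, 5.38 and 3.78 CPM. The lowest STAM-vehicle mouse was above the highest healthy mouse, and STAM-vehicle mouse 3 was the highest of the 8. Tlr2 was 2.30-fold higher in STAM-vehicle (log2 fold change 1.20, SE 0.27, adjusted p = 0.0171). Tlr4 (ENSMUSG00000039005, chromosome 4), the receptor for lipopolysaccharide, was measured at 1.09 to 1.70 CPM in healthy and at 1.36 to 2.32 CPM in STAM-vehicle mice. These ranges overlapped, and the log2 fold change of Tlr4 had a 95% interval of -0.28 to 0.85.

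Tlr9 (ENSMUSG00000045322, chr9:106222598-106226883, plus strand) encodes the endosomal receptor for unmethylated CpG DNA. In healthy mice 1 to 4 the level of Tlr9 was 0.40, 0.37, 0.58 and 0.23 CPM, and in STAM-vehicle mice 1 to 4 it was 0.67, 1.16, 1.16 and 1.10 CPM. The groups did not overlap, and STAM-vehicle mouse 1 lay well below the other 3 mice of its group. Tlr9 was 2.58-fold higher in STAM-vehicle (log2 fold change 1.37, SE 0.31, adjusted p = 0.0193).

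Neither of the co-receptors passed the test. Cd14 (ENSMUSG00000051439) encodes a surface protein that hands lipopolysaccharide to the receptor complex, and Ly96 (ENSMUSG00000025779, chromosome 1) encodes MD-2, which binds it together with Tlr4. The level of Cd14 was 4.94, 2.83, 2.5 and 3.05 CPM in healthy mice 1 to 4 and 4.74, 5.43, 9.90 and 5.92 CPM in STAM-vehicle mice 1 to 4. Only STAM-vehicle mouse 1 lay within the healthy range. The log2 fold change of Cd14 was 0.96 (SE 0.42), with an unadjusted p of 0.0388 in the edgeR fit and an adjusted p of 0.196. Ly96 lay between 2.04 and 3.11 CPM in healthy and between 1.75 and 2.53 CPM in STAM-vehicle mice, with a log2 fold change of -0.24 (SE 0.20, adjusted p = 0.532 in edgeR). Whether the changes of Cd14 and Ly96 differ was not tested.

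Myd88 (ENSMUSG00000032508, chromosome 9), the adaptor shared by Tlr2, Tlr4 and Tlr9, lay between 17.6 and 22.9 CPM in healthy and between 15.7 and 19.5 CPM in STAM-vehicle mice. Its log2 fold change was -0.18, with a narrow 95% interval of -0.43 to 0.08. Myd88 overlaps Acaa1a on the opposite strand, a gene with up to 33582 counts in these livers, so reads assigned to Myd88 depend on how strand was handled in counting, which is not given in the sources used here. It also overlaps Slc22a14, a gene on its own strand with up to 34 counts.

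Nlrp3 (ENSMUSG00000032691, chr11:59541568-59566956, plus strand) encodes the sensor that assembles the caspase-1 inflammasome, which cleaves the Il1b precursor. Its level in healthy mice 1 to 4 was 1.68, 0.77, 0.81 and 0.86 CPM, and in STAM-vehicle mice 1 to 4 it was 2.04, 2.08, 2.61 and 2.72 CPM. The groups did not overlap, but healthy mouse 1 lay closer to the STAM-vehicle mice than to the other healthy mice. Nlrp3 was 2.27-fold higher in STAM-vehicle (log2 fold change 1.18, SE 0.27, adjusted p = 0.0202).

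The cytokine Tnf (ENSMUSG00000024401, chr17:35199381-35202007, minus strand) had the largest estimated change and the widest error. It had 19, 3, 0 and 7 counts in healthy mice 1 to 4, and 17, 31, 49 and 28 counts in STAM-vehicle mice 1 to 4. The 0 counts of healthy mouse 3 allow a level of up to 0.0872 CPM, which covers counting error only. As levels, these were 0.40, 0.079, 0 and 0.20 CPM in healthy and 0.41, 0.59, 0.95 and 0.59 CPM in STAM-vehicle mice, and healthy mouse 1 and STAM-vehicle mouse 1 were all but equal. The log2 fold change of Tnf was 1.81 (SE 0.67), with an unadjusted p of 0.0168 and an adjusted p of 0.120 in the edgeR fit. DESeq2, the tool the study used, gave an adjusted p of 0.0388 for Tnf and called Tlr2, Tlr9 and Nlrp3 as well, 4 of the 10 genes where it called 9.95% of all it tested. Without healthy mouse 1, edgeR gave Tnf a log2 fold change of 2.73 (adjusted p = 0.0445).

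Il1b (ENSMUSG00000027398, chromosome 2), the interleukin-1 beta precursor, was measured at 0.95 to 2.25 CPM in healthy and at 1.05 to 2.94 CPM in STAM-vehicle mice. The ranges overlapped almost fully, and the log2 fold change of Il1b was 0.23 (95% interval -0.59 to 1.05). An antisense gene, Il1bos, with up to 21 counts, overlaps Il1b, so reads of the pair may not be told apart either. Nfkbia (ENSMUSG00000021025, chr12:55489410-55492647, minus strand), which encodes the inhibitor IkB-alpha and is itself a target of NF-kB, lay between 41.7 and 58.5 CPM in healthy and between 33.6 and 47.0 CPM in STAM-vehicle mice. Its log2 fold change was -0.28 (SE 0.14, adjusted p = 0.247 in edgeR), so the direction of its estimate was opposite to those of Tlr2, Tlr9 and Nlrp3, without passing the test.

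**Figure D2:**
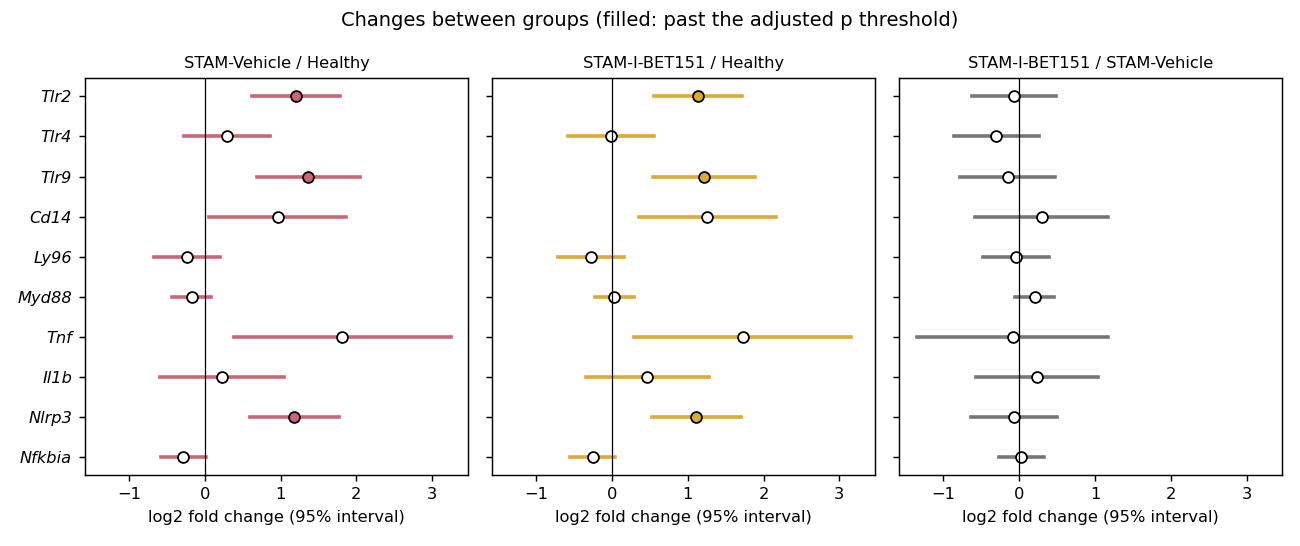
Log2 fold change of each of the 10 genes with its 95% interval from the edgeR fit, for STAM-vehicle against healthy, STAM-I-BET151 against healthy and STAM-I-BET151 against STAM-vehicle. Filled points passed the adjusted p threshold: Tlr2, Tlr9 and Nlrp3 in the first 2 panels, between 1.11 and 1.37, and none in the third, where every interval includes 0.

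The stretches of promoter directly before the annotated gene starts are shown for the 3 genes that rose and for Nfkbia, an NF-kB target that did not pass. Tnf and Il1b, also NF-kB targets, did not pass in edgeR either, and their stretches are not printed. The stretches shown were taken from the RefSeq promoter windows on GRCm38, which reach from 250 bases before to 50 bases after a start and were given for 7 of the 10 genes. That of Tlr2 is 91 bases long, since its annotated gene start lies upstream of the RefSeq start, and the others are 249 or 250. The windows were searched on both strands for GGG, any 3 bases and TTCC, a form of the kappaB motif that NF-kB binds, and matches are in capitals. Each is written 5′ to 3′ on the strand of its gene, Tlr2 from chr3:83841768-83841858 (minus strand), Nfkbia from chr12:55492648-55492897 (minus strand), Tlr9 from chr9:106222348-106222597 (plus strand) and Nlrp3 from chr11:59541319-59541567 (plus strand).
Tlr2: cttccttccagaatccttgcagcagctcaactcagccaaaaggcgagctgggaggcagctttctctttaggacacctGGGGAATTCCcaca
Nfkbia: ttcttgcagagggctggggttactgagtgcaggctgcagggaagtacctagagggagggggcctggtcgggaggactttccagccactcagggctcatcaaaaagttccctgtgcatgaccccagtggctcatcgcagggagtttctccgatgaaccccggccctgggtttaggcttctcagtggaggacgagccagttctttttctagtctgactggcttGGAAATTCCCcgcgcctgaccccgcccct
Tlr9: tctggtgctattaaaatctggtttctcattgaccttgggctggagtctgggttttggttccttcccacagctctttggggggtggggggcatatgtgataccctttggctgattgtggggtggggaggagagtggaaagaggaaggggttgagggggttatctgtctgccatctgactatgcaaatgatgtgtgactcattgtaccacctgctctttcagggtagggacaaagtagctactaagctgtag
Nlrp3: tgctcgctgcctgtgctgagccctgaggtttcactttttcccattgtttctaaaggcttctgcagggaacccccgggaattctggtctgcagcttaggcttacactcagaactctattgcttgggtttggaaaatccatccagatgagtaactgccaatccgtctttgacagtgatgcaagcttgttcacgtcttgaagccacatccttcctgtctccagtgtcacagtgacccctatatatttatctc

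The Tlr2 stretch holds GGGGAATTCC, beginning 14 bases before the gene start, and the Nfkbia stretch holds GGAAATTCCC, which reads GGGAATTTCC on the other strand and begins 29 bases before the start. The motif was in 5.56% of all 32851 promoter windows of the same length. No match was found in the windows of Tlr9, Nlrp3, Tnf, Il1b and Myd88. The looser form GGG, any 4 bases and TCC, which also covers every match of the first, was found 3 times in the Tlr2 window, 1 time in that of Nfkbia, and in 19.2% of all windows. A match is a description of the letters, and a window without one says only that these letters are not in it.

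The second comparison, STAM-I-BET151 against STAM-vehicle, asks what the compound did to the same genes in diseased liver. None of the 10 genes passed an adjusted p of 0.1 in edgeR, and none had an unadjusted p under 0.05; DESeq2 called none as well. Over all genes tested, 0.351% passed in edgeR and 1.5% in DESeq2. The 2 groups overlapped in all 10 genes, and 5.04% of all genes tested were without overlap. The median log2 fold change was -0.05 over the 10 genes and 0.02 over all genes tested. The estimates ran from -0.30 for Tlr4 to 0.30 for Cd14. Without STAM-I-BET151 mouse 3 they ran from -0.45 for Tnf to 0.60 for Cd14 and again none passed, the lowest adjusted p being 0.323 for Myd88, while 2.38% of all genes tested passed.

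The receptor genes that rose in disease were found at like levels in treated livers. In STAM-I-BET151 mice 1 to 4 the level of Tlr2 was 6.07, 3.34, 2.76 and 3.42 CPM, so that mouse 1 was above every STAM-vehicle mouse and the other 3 were below, mouse 4 by less than 0.01 CPM. Its log2 fold change was -0.07 (95% interval -0.63 to 0.49). The level of Tlr9 was 1.05, 0.63, 1.00 and 0.99 CPM in these mice, with a log2 fold change of -0.15 (95% interval -0.78 to 0.48), and mouse 2 was the lowest of its group. These intervals leave room for a moderate fall or rise of either gene, so the result does not show that their levels were equal.

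Nlrp3 was measured at 2.85, 1.66, 2.15 and 2.32 CPM in STAM-I-BET151 mice 1 to 4, with a log2 fold change of -0.07 (95% interval -0.63 to 0.50). Cd14 varied widely in this group, at 11.7, 5.39, 2.56 and 12.3 CPM. Mice 1 and 4 lay above every STAM-vehicle mouse, and mouse 3, the liver that stood apart, lay below every one of them and within the healthy range. The log2 fold change of Cd14 was 0.30 (95% interval -0.58 to 1.18), and without mouse 3 it was 0.60, with an adjusted p of 0.344 in edgeR. In limma-voom with sample weights, which gave mouse 3 a weight of 0.0749, Cd14 was higher by 0.78 (adjusted p = 0.0988), the only one of the 10 genes past 0.1 in any fit of this comparison.

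Among the cytokines, Tnf had 43, 9, 56 and 13 counts in STAM-I-BET151 mice 1 to 4, or 0.77, 0.27, 1.00 and 0.30 CPM. Mouse 3 lay above every STAM-vehicle mouse and mice 2 and 4 below every one, and the 95% interval of the log2 fold change, -1.36 to 1.18, was the widest of the 10. Il1b lay between 1.11 and 3.15 CPM, with an interval of -0.57 to 1.04. The 2 most abundant genes had the tightest estimates. Nfkbia, at 39.4 to 47.0 CPM, had a log2 fold change of 0.03 with an interval of -0.27 to 0.32, and Myd88, at 19.4 to 23.5 CPM, one of 0.20 with an interval of -0.06 to 0.46. For Ly96, at 1.76 to 2.38 CPM, the interval was -0.47 to 0.39, and for Tlr4, at 0.99 to 1.87 CPM, it was -0.86 to 0.26.

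The third comparison, STAM-I-BET151 against healthy, shares its mice with the other 2 and asks how far treated livers stood from healthy ones. The same 3 genes passed an adjusted p of 0.05 in edgeR: Tlr2 at a log2 fold change of 1.13 (SE 0.27, adjusted p = 0.0145), Tlr9 at 1.21 (SE 0.32, adjusted p = 0.0214) and Nlrp3 at 1.11 (SE 0.27, adjusted p = 0.0168). Over all genes tested, 9.88% rose in this comparison, and the median log2 fold change was 0.06, against 0.79 over the 10 genes. Every STAM-I-BET151 mouse was above every healthy mouse for Tlr2 and Tlr9, 2 of the 10 genes against 10.9% of all genes tested, while for Nlrp3 STAM-I-BET151 mouse 2 lay just under healthy mouse 1. Cd14 had a log2 fold change of 1.26 (SE 0.42, adjusted p = 0.0592) and Tnf one of 1.72 (SE 0.67, adjusted p = 0.0931), and neither passed. DESeq2 called both, besides Tlr2, Tlr9 and Nlrp3, where it called 18% of all genes it tested. Without STAM-I-BET151 mouse 3, Tlr2, Tlr9 and Nlrp3 had log2 fold changes of 1.26, 1.16 and 1.12 and passed, and Cd14 had 1.54 and passed as well (adjusted p = 0.00666 in edgeR).

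The calls rested on few mice. For STAM-vehicle against healthy, dropping a single mouse from the edgeR fit, each of the 12 in turn, gave log2 fold changes of 1.04 to 1.39 for Tlr2, 1.19 to 1.59 for Tlr9 and 1.06 to 1.53 for Nlrp3, all of the same sign. The adjusted p stayed at or under 0.05 in 8, 7 and 7 of the 12 fits, respectively, and reached 0.0672, 0.0659 and 0.0759. None of the 3 genes passed without healthy mouse 2, healthy mouse 4 or STAM-vehicle mouse 3. Only Tlr9 passed without healthy mouse 3, only Tlr2 without STAM-vehicle mouse 4, and Tlr2 and Nlrp3 without STAM-vehicle mouse 2. For STAM-I-BET151 against healthy, Tlr2, Tlr9 and Nlrp3 passed in 10, 10 and 9 of the 12 fits. There, no gene passed without healthy mouse 2, only Tlr9 without healthy mouse 3 and only Tlr2 without healthy mouse 4. Fits without STAM-I-BET151 mouse 3 called 4 of the 10 genes in both comparisons, the fourth being Cd14. These fits called 22.3% of all genes tested in STAM-vehicle and 20.4% in STAM-I-BET151 against healthy, so more genes passed of all tested too. Without healthy mouse 1, 4 were called in STAM-vehicle, with Tnf, where 7.23% of all genes tested passed, and 5 in STAM-I-BET151, with Tnf and Cd14, where 15.1% passed. In the fits without healthy mouse 2, 3 or 4 or STAM-vehicle mouse 3, from 3.17% to 3.42% of all genes passed in STAM-vehicle against healthy.

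**Figure D3:**
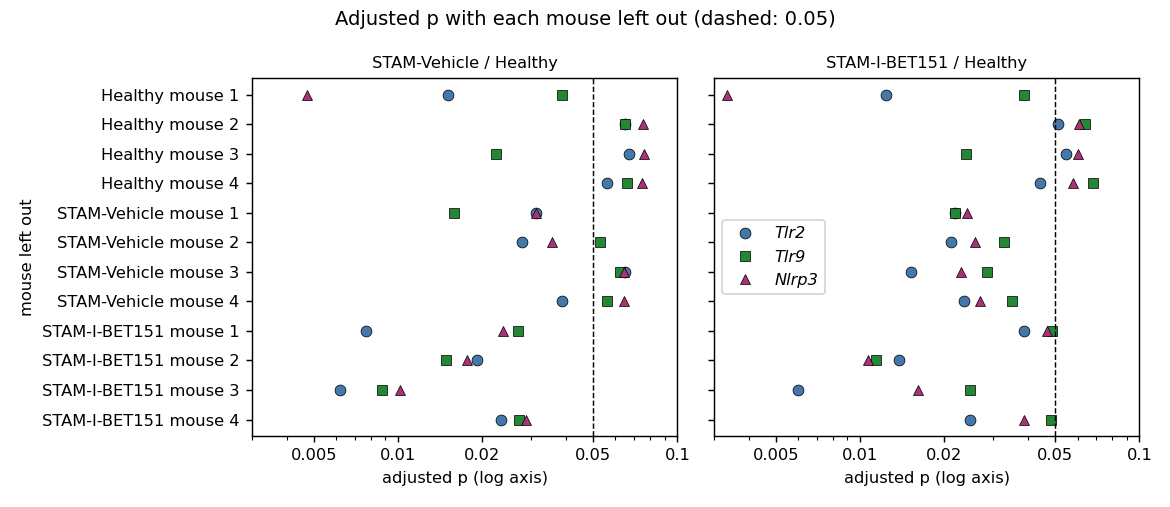
Adjusted p from edgeR (log axis) for Tlr2, Tlr9 and Nlrp3 against healthy mice, with each of the 12 mice left out in turn, in STAM-vehicle on the left and STAM-I-BET151 on the right. Points right of the dashed line at 0.05 did not pass. They come from the fits without healthy mice 2, 3 or 4 in both panels and, on the left, those without STAM-vehicle mice 2, 3 or 4.

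The sequencing lane, read from the deposited file labels, was spread unevenly over the groups: 6 lanes were used, and only 1 of them held mice of all 3 groups. In that lane, STAM-vehicle mouse 4 was above healthy mouse 1 by log2 ratios of 0.65 for Tlr2, 1.45 for Tlr9 and 0.69 for Nlrp3, a single mouse on each side. With the lane as a covariate, the log2 fold changes of STAM-vehicle against healthy were 0.80 for Tlr2, 1.34 for Tlr9 and 0.71 for Nlrp3, and none passed (adjusted p = 0.713, 0.486 and 0.691 in edgeR). That of Tnf was 0.21. In this fit 37 genes passed of all tested, against 1195 without the lane. No STAM-vehicle and healthy mice shared another lane, so lane and group cannot be told apart beyond this fit. Lane 4 held only STAM-vehicle mouse 2, and lane 8 only healthy mice 2 and 3, so these mice add nothing to group differences once the lane is fitted. The healthy side then rests on mice 1 and 4, and mouse 1 had the highest Tlr2, Tnf and Nlrp3 of its group. Whether the lane itself changed these genes was therefore not tested by the loss of calls. For STAM-I-BET151 against healthy, the fit with the lane gave 0.69, 1.42 and 0.73 for Tlr2, Tlr9 and Nlrp3 (adjusted p = 0.508, 0.220 and 0.385), and the 2 lanes with both groups gave log2 ratios of 0.51 and 0.93 for Tlr2, 1.29 and 1.46 for Tlr9, and 0.47 and 0.94 for Nlrp3. The 3 lanes that held a STAM-I-BET151 and a STAM-vehicle mouse gave log2 ratios of 0.68, -0.96 and -0.14 for Tlr2 and of 1.30, -1.95 and 1.06 for Cd14, with no common sign.

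Summed markers of macrophages were also higher in STAM-vehicle than in healthy mice. The summed level of 11 macrophage and Kupffer cell markers was 301.6 to 429.5 CPM in healthy, 476.3 to 934.2 CPM in STAM-vehicle and 346.3 to 813.7 CPM in STAM-I-BET151 mice. The lowest STAM-I-BET151 sum, that of mouse 3, lay within the healthy range. In the same liver Tlr2, Tlr9 and Nlrp3, at 2.76, 1.00 and 2.15 CPM, were above every healthy mouse. So were the markers Cd68, Marco and Clec4f, at 16.8, 14.2 and 91.8 CPM, whereas the rest of the 11 lay within or below the healthy range. The monocyte and neutrophil marker sums of this liver, 15.96 and 7.42 CPM, were above every healthy mouse too. Of the 11 markers, 4 rose in STAM-vehicle, where 5.72% of all genes tested rose. They were Marco, a scavenger receptor, by 1.95 on the log2 scale (adjusted p = 0.0374 in edgeR), Cd68 by 1.10, Adgre1 (F4/80) by 0.98 and Clec4f, a Kupffer cell lectin, by 0.76. All 11 had log2 fold changes above 0. With each of the 12 mice dropped in turn, Marco was called in 7 fits, Cd68 in 12, Adgre1 in 5 and Clec4f in 7. Marco was at 73.35 CPM in STAM-vehicle mouse 3 and at 19.54 to 31.26 CPM in the others of that group. Timd4, a marker of long-resident Kupffer cells, had a log2 fold change of 0.18 (adjusted p = 0.787). The 6 monocyte markers summed to 5.89 to 8.28 CPM in healthy, 12.7 to 27.6 CPM in STAM-vehicle and 7.50 to 18.5 CPM in STAM-I-BET151 mice. Fcgr1, Plac8 and Ly6c2 rose in STAM-vehicle, Plac8 in all 12 fits that dropped a mouse and Fcgr1 and Ly6c2 in 7 each. The 6 neutrophil markers summed to 3.02 to 5.11, 5.75 to 14.4 and 4.43 to 11.96 CPM. Of these, Csf3r rose by 1.01 in STAM-vehicle, a call made in 4 of the 12 fits that dropped a mouse. The defining marker Ly6g was at or near 0 in all 3 groups, with 0 counts in every healthy mouse, at most 1 in a STAM-vehicle mouse and at most 3 in a STAM-I-BET151 mouse. STAM-vehicle mouse 3 had the highest sum of its group in these 3 lists and the highest level of its group in 7 of the 10 genes. Tlr2 was among them. Tlr9 was all but equal in STAM-vehicle mice 2 and 3, at 61 and 60 counts, and Nlrp3 was at 2.72 CPM in mouse 4 and 2.61 CPM in mouse 3. The part of these cells in the changes of Tlr2, Tlr9 and Nlrp3 was not tested.

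T cell markers were read in the same way. The 5 of them summed to 1.55 to 4.60 CPM in healthy, 4.28 to 6.30 CPM in STAM-vehicle and 1.70 to 2.42 CPM in STAM-I-BET151 mice. All 5 had log2 fold changes above 0 in STAM-vehicle against healthy, with a median of 1.02. Of all 16823 genes tested, 8571 were above 0 there. All 5 were below 0 in STAM-I-BET151 against STAM-vehicle, with a median of -1.27, as were 7751 of all genes. Of the 5, 1 passed in each comparison, where 5.72% of all genes rose and 0.351% passed, respectively. STAM-vehicle and healthy mice overlapped in all but Cd8a, and Cd3g had a log2 fold change of only 0.26 (adjusted p = 0.785 in edgeR). Cd8a rose in STAM-vehicle by 2.31 on the log2 scale (adjusted p = 0.00482 in edgeR). Cd4 fell in STAM-I-BET151 against STAM-vehicle by 1.77 (adjusted p = 0.0520), a call made in 7 of the 12 fits that dropped a mouse. The part of T cells in the values of the 10 genes was not tested. None of the 4 B cell, 5 sinusoidal endothelial and 5 stellate cell markers passed between STAM-vehicle and healthy mice, and their summed levels overlapped. The 5 hepatocyte markers summed to 104742 to 123158 CPM in healthy and 53642 to 72923 CPM in STAM-vehicle mice, without overlap, and none of them passed singly in the fit of all 12 mice. With each mouse dropped in turn, Alb, Apoa1 and Ttr were each called in 1 of the 12 edgeR fits, at an adjusted p of 0.0126, 0.0278 and 0.00335, and Cyp2e1 and Cps1 in none. Alb made up most of these sums, at a mean of 81120 CPM in healthy and 41310 CPM in STAM-vehicle mice. Alb, Apoa1 and Ttr were lower in STAM-vehicle without overlap, whereas Cyp2e1 and Cps1 overlapped.

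**Figure D4:**
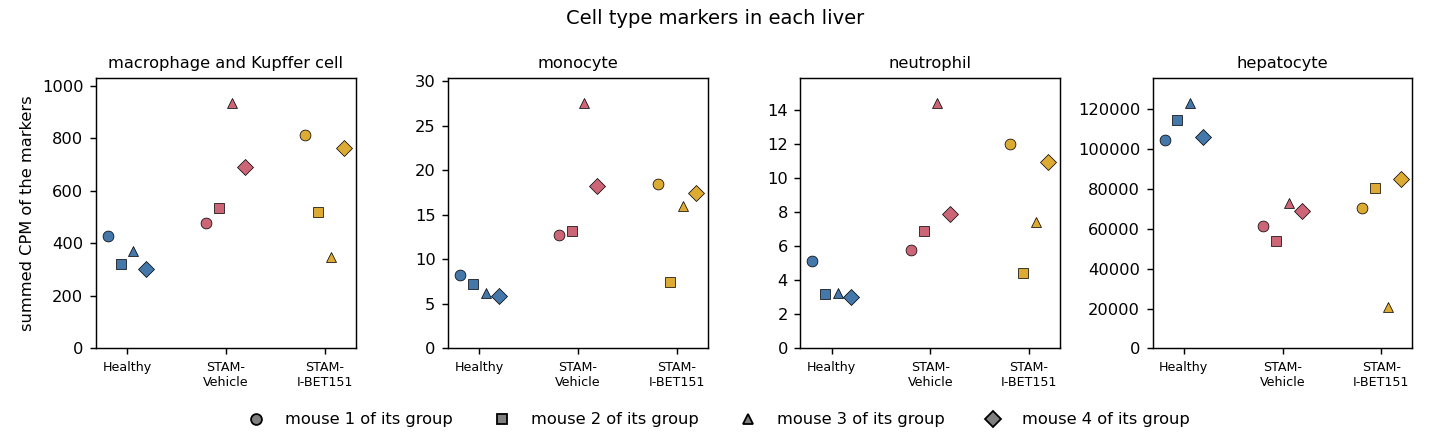
Summed level (CPM, linear axes from 0) of the macrophage and Kupffer cell, monocyte, neutrophil and hepatocyte markers in every mouse of the 3 groups, with the mouse number as the marker shape. The macrophage, monocyte and neutrophil sums of all 4 STAM-vehicle mice lie above those of all healthy mice, the hepatocyte sums lie below, and STAM-I-BET151 mouse 3 has the lowest hepatocyte sum of all, 20955 CPM.

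The rest of the sensing machinery was read from 7 lists of 92 genes, of which 83 passed the filter on low counts. In STAM-vehicle against healthy, 9 of the 83 rose and 1 fell in edgeR, and their median log2 fold change was 0.35. For scale, 5.72% of all genes tested rose and 1.38% fell. The genes that rose were receptors, signalling genes and sensors, and the 13 NF-kB subunits, IKK kinases and inhibitors had none past the threshold and a median of 0.17. The 6 co-receptors and chaperones, among them Lbp and Unc93b1, had none past it either. Of the 9 genes that did not pass the filter, 8 were cytokines or cytokine receptors, and their highest count in any mouse was 10 for Il6, 24 for Il10, 7 for Il12b and 8 for Osm, so they were not tested in this fit. The count of 10 called genes fell to 4, 1 and 2 without healthy mice 2, 3 and 4, to 1 and 4 without STAM-vehicle mice 3 and 4, and was 23 without STAM-I-BET151 mouse 3. In the same order, 3.3%, 3.17%, 3.42%, 3.21%, 3.94% and 22.3% of all genes tested passed.

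Of the 9 other Toll-like receptors, 3 rose in STAM-vehicle livers. Tlr1, which pairs with Tlr2, went from 0.86 CPM (SD 0.10, n = 4) in healthy to 2.55 CPM (SD 1.03) in STAM-vehicle mice, a log2 fold change of 1.57 (adjusted p = 0.0199 in edgeR). Tlr7, an endosomal receptor for single-stranded RNA, went from 1.71 to 4.51 CPM (log2 fold change 1.39, adjusted p = 0.0126), and Tlr13, a receptor for bacterial ribosomal RNA, from 2.13 to 4.48 CPM (1.07, adjusted p = 0.0426). For all 3 the groups did not overlap. In STAM-I-BET151 livers Tlr1 was at 2.88 CPM and still above healthy (log2 fold change 1.75, adjusted p = 0.00769), whereas Tlr7 was at 2.86 CPM and Tlr13 at 3.58 CPM, with log2 fold changes of -0.66 and -0.32 against STAM-vehicle that did not pass (adjusted p = 0.535 and 0.818).

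Downstream of the receptors, the signalling genes Traf3 and Tab1 rose by 0.49 and 0.68 on the log2 scale (adjusted p = 0.0265 and 0.0405 in edgeR), the smallest of the called increases. Aim2, the inflammasome sensor of cytosolic DNA, rose from 1.38 to 3.07 CPM (log2 fold change 1.15, adjusted p = 0.0171). Among 14 cytosolic and lectin sensors tested, 3 rose: Card9, the adaptor of C-type lectins, by 1.35, Zbp1, a sensor of Z-form nucleic acids, by 1.34, and Clec7a (dectin-1), a receptor for fungal beta-glucan, by 1.13. The single gene that fell was Il1rap, the accessory chain of the interleukin-1 receptor, from 132.2 CPM (SD 17, n = 4) in healthy to 77.2 CPM (SD 9.16) in STAM-vehicle mice (log2 fold change -0.78, adjusted p = 0.0172). It was also the most abundant of the genes called here, at 11.6 CPM per kb in healthy livers.

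None of the 83 genes passed between STAM-I-BET151 and STAM-vehicle in edgeR, where 7 had an unadjusted p under 0.05 and DESeq2 called none, and their median log2 fold change was -0.04. Without STAM-I-BET151 mouse 3, where 2.38% of all genes tested passed, 1 list gene passed. It was the NF-kB subunit gene Rel (c-Rel), which is named here after its values were seen. Its level was 8.53, 9.77, 7.41 and 8.85 CPM in STAM-vehicle mice 1 to 4 and 6.05, 5.39, 8.21 and 6.02 CPM in STAM-I-BET151 mice 1 to 4, so that mouse 3 alone lay within the STAM-vehicle range. The log2 fold change of Rel was -0.43 with all mice (adjusted p = 0.401 in edgeR) and -0.56 without mouse 3 (adjusted p = 0.0475).

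Against healthy mice, 10 of the 83 were higher and 1 lower in STAM-I-BET151: Tlr1, Irak3, Traf3, Tab1, Aim2, Mefv, Card9, Nod1, Clec7a and Syk were higher and Il1rap lower, at 68.0 CPM (log2 fold change -0.96, adjusted p = 0.00381). Irak3, an inhibitory kinase of the Myd88 pathway, was at 1.38 CPM in healthy, 2.86 CPM in STAM-vehicle and 3.54 CPM in STAM-I-BET151 mice. Nod1, a sensor of bacterial peptidoglycan, was at 16.15, 19.99 and 25.04 CPM, with mouse 3 of the last group the highest of all at 33.6 CPM. For all genes tested, 9.88% were higher and 5.25% lower in this comparison. The count of 11 was 6 without healthy mouse 3, 22 without STAM-I-BET151 mouse 2 and 16 without mouse 3 of that group. Of all genes tested, 7.49%, 21.7% and 20.4% passed in these fits, so the counts moved with those over all genes.

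**Figure D5:**
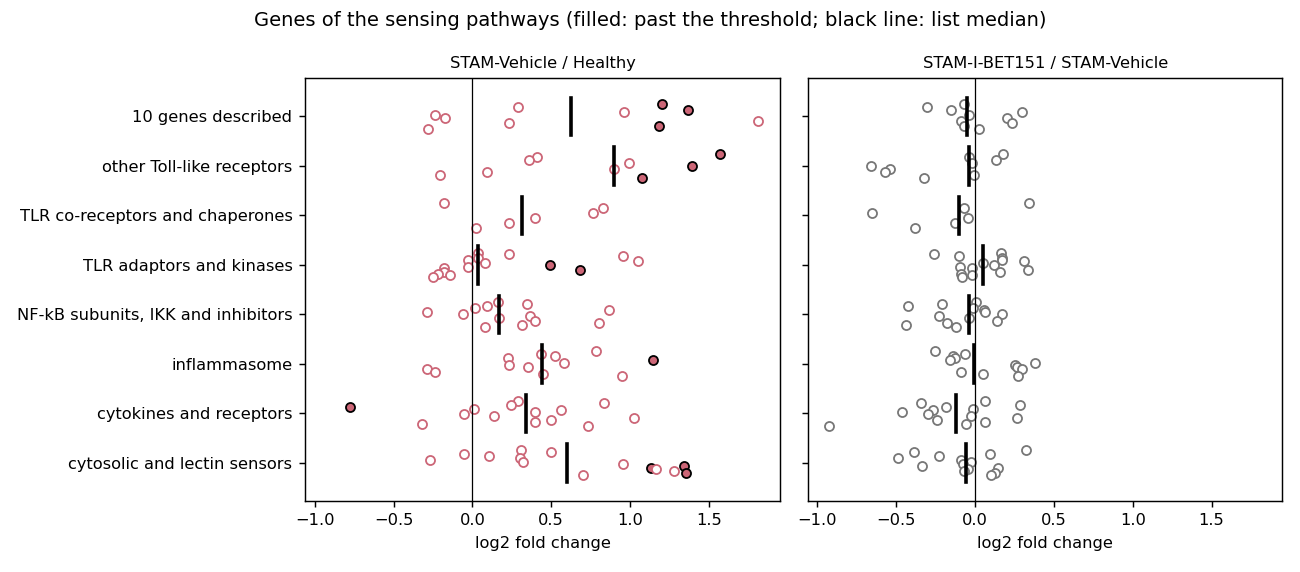
Log2 fold change of each tested gene of the 10 described and of the 7 pathway lists, for STAM-vehicle against healthy on the left and STAM-I-BET151 against STAM-vehicle on the right, with the median of each list as a black line. Filled points passed the adjusted p threshold (3 of the 10 genes and 10 of the 83 list genes on the left, none on the right), and the list medians on the left run from 0.04 for the adaptors and kinases to 0.90 for the other Toll-like receptors.

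The 10 genes did not all follow each other from mouse to mouse. As a description, each gene's log2 CPM over the 12 mice was standardized and the root-mean-square distance between genes was taken, in SD units, so that 0 means the same pattern. The closest pair was Tlr2 and Nlrp3, at 0.38, followed by Tnf and Nlrp3 at 0.53 and Tlr9 and Nlrp3 at 0.58, whereas Tlr9 and Nfkbia were 1.71 apart. Healthy mouse 1 had the highest level of its group in 5 genes (Tlr2, Tlr4, Cd14, Tnf and Nlrp3), and healthy mouse 4 the lowest in 6. STAM-I-BET151 mouse 1 was the highest of its group in 6, among them Tlr2, Tlr9, Il1b and Nlrp3. Among all 16823 genes tested, those nearest to Tlr2 were Galnt10 (0.27), Fam129a (0.32) and Lhx6 (0.33). Those nearest to Nlrp3 were Prex1 (0.21), Ppp1r9b (0.26) and Creb3l1 (0.27), and those nearest to Tlr9 were Cd300ld4 (0.31), Cd300lb (0.35) and Eda2r (0.35). All of these had higher mean levels in both STAM groups than in healthy mice, and the distances come from the same 12 libraries as the comparisons.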

How the data were processed

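Liver RNA of 12 mice in 3 groups of 4 was sequenced in paired reads of 101 bases from a stranded mRNA library, and groups and replicate numbers were read from the sample titles. The authors deposited whole-number counts of uniquely mapped reads per gene and mouse, without normalization, after alignment with STAR 2.5.1b to mm10 according to their processing notes. The study's methods and processing notes name HTSeq for counting and the labels of the deposited files name featureCounts; the strand setting and the annotation release are not given in the sources used here. Of 47729 gene identifiers, 47310 matched GENCODE M21 (GRCm38), which gave symbols, positions and exon lengths, and promoter windows came from the RefSeq table on GRCm38.p6.

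Tests were run with edgeR 4.0.16 under R 4.3.3 (TMM, filterByExpr with minimum count 10, quasi-likelihood F-test, 1 fit of the 3 groups); summaries and plots used Python 3.11.15 (pandas 2.3.3, NumPy 2.4.6, Matplotlib 3.10.9). Thresholds were an adjusted p of 0.05 against healthy mice and 0.1 for I-BET151 against vehicle. The SE of a log2 fold change is its size over the square root of F. Alternatives were DESeq2 1.42.0, RLE factors, other low-count filters, fits of 2 groups, the replicate number as a block, the lane, limma-voom 3.58.1 with sample weights, and each mouse left out. DESeq2 without STAM-I-BET151 mouse 3 was added after seeing the data. The edgeR fit was also run on counts simulated with the spread estimated from these data. That simulation held no liver that stood apart as STAM-I-BET151 mouse 3 did, and nothing is concluded from it here.

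The 10 genes, the pathway lists and the marker lists were chosen with earlier results of these data known. All 10 genes are named, and of the pathway lists each gene past a threshold in at least 1 comparison, with the 3 tested genes nearest to each called gene. Same-numbered mice did not deviate together (mean correlation -0.09 over 12 pairs, from -0.35 to 0.09), and they were not treated as paired. The pairs share mice, so these values cannot exclude a pairing. STAM-vehicle and STAM-I-BET151 mice 1, 3 and 4 shared lanes 6, 7 and 2, respectively. No pair of mice in a group agreed within sampling noise, the lowest chi-square per degree of freedom being 38.6. Totals per mouse were 34711229 to 53365596 counts, so 3 counts, the upper limit that a count of 0 allows, are 0.0538 to 0.0904 CPM. RT-qPCR and histology were not used here.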

Additional observations from a re-analysis of the deposited data

Results flagged for a closer look

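The level of each of the 10 genes was checked in each group of 4 mice, 30 groups in all, for a mouse whose gap to the nearest other mouse exceeded Dixon's 95% critical share of the group's log2 range. Chance alone gives such a gap in about 1 group of 20, and 3 were found. For Tlr9, STAM-vehicle mouse 1 was the lowest of its group at 0.67 CPM against 1.10 to 1.16 CPM (ratio 0.904), and STAM-I-BET151 mouse 2 was the lowest of its group at 0.63 CPM against 0.99 to 1.05 CPM (ratio 0.887). For Nlrp3, healthy mouse 1 was the highest of its group at 1.68 CPM against 0.77 to 0.86 CPM (ratio 0.854). Without that mouse, the adjusted p of Nlrp3 in edgeR was 0.00473 for STAM-vehicle and 0.00332 for STAM-I-BET151 against healthy, the lowest of the 12 fits that each omitted a mouse.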

How the results depend on the processing

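Across the alternatives, Tlr2, Tlr9 and Nlrp3 stayed above healthy in both STAM groups wherever they were tested, while their calls did not hold in every fit. With the lane as a covariate 0 of the 10 genes and 0 of the 83 list genes passed in either comparison with healthy mice, and 37, 0 and 85 of all genes passed for STAM-vehicle against healthy, STAM-I-BET151 against STAM-vehicle and STAM-I-BET151 against healthy. In the same order, all genes called were 1892 and 268 with DESeq2 (the third within 1.5-fold), 3879, 8 and 1262 in fits of 2 groups, 5672, 1205 and 4880 with sample weights, and 4378, 1288 and 4105 with DESeq2 without STAM-I-BET151 mouse 3. Without a low-count filter the second was 101. Of the 10 genes, sample weights called 5, 1 and 5, DESeq2 without mouse 3 called 5 for STAM-vehicle against healthy, DESeq2 called 5 for STAM-I-BET151 against healthy, and the fit of 2 groups called 1 there, Tlr2. With at least 10 counts in every mouse Tlr9 and Tnf were not tested. List genes called were 27 for STAM-vehicle against healthy in the fit of 2 groups, 43, 2 and 30 with sample weights (the 2 being Rel and Ltb), 31, 3 and 19 with DESeq2 without mouse 3 (the 3 being Rel, Ikbkg and Lbp), and 17 for STAM-I-BET151 against healthy with DESeq2. The cause of these differences was not tested.

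The mice were not treated as paired by replicate number. With the number as a replicate block, 742, 10 and 1573 genes passed in the 3 comparisons, 6 list genes passed for STAM-vehicle against healthy, and the 10 genes kept their calls.

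Leaving out each mouse in turn gave 546 to 3779, 13 to 403 and 1292 to 3731 genes called of all tested, 0 to 4, 0 to 0 and 0 to 5 of the 10 genes, and 1 to 23, 0 to 1 and 6 to 22 list genes. The sign of an uncalled estimate changed in these fits, so no direction is read from it. Il1b in STAM-vehicle against healthy ran from -0.121 to 0.475. In STAM-I-BET151 against STAM-vehicle, Tlr2 ran from -0.37 to 0.0903, Ly96 from -0.127 to 0.0669, Tnf from -0.451 to 0.166, Il1b from -0.0334 to 0.584, Nlrp3 from -0.207 to 0.0439 and Nfkbia from -0.0683 to 0.0821. In STAM-I-BET151 against healthy, Tlr4 ran from -0.198 to 0.113 and Myd88 from -0.0452 to 0.0835. With the lane, Ly96 was 0.0135 and Il1b -0.0578 in STAM-vehicle against healthy, and Tlr9 was 0.081, Tnf 0.0573 and Nlrp3 0.0206 in STAM-I-BET151 against STAM-vehicle. In that comparison sample weights gave 0.155 for Tlr2, 0.0892 for Ly96, 0.015 for Nlrp3 and -0.0646 for Nfkbia, DESeq2 without mouse 3 gave 0.0815 for Tlr2, 0.0413 for Ly96 and -0.00528 for Nfkbia, and the fit without a filter gave -4.52e-05 for Nfkbia. In STAM-I-BET151 against healthy, Tlr4 was 0.0201 with at least 10 counts, 0.0035 in the fit of 2 groups, 0.255 with sample weights and 0.122 with DESeq2 without mouse 3, and Myd88 was -0.00537 with DESeq2.

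The counts of Tnf (at most 56) and Tlr9 (at most 61) limit what can be said of them.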
